A study of Mus musculus with 9 samples.

Results

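Interferon signalling and interferon-stimulated genes were represented by 9 genes of the 21899 in the deposited table. They were chosen by name, with earlier results of these data known: Stat2, Irf7, Irf9, Isg15, Ifit1, Ifit3, Bst2, Usp18 and Ifih1. They were followed in N2a cells (Neuro-2a, a mouse neuroblastoma line that the labels describe as a neuroblast) in which either luciferase, as the control (shlucif), or Arf1 was targeted by a short hairpin RNA, Arf1 by a pair of different hairpins (shArf1-1 and shArf1-2). Arf1 encodes a small GTPase of membrane traffic. Each hairpin group held 3 libraries, the labels list no further treatment, and the 6 libraries with an Arf1 hairpin are called Arf1-deficient. Nothing in the labels says whether the replicates came from separate cultures, so that the p values given here measure the spread between these libraries, which may be technical. The hairpins lower Arf1 without removing it, and Arf1 counts ran from 8840 to 9446 with shlucif, from 2982 to 4137 with shArf1-1 and from 4420 to 5073 with shArf1-2.

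Type I interferons are secreted when a cell senses foreign or misplaced nucleic acid. They bind a receptor whose kinases phosphorylate STAT2, which joins IRF9 in a complex that binds the interferon-stimulated response element (ISRE) in the promoters of its target genes. The products of those genes block viruses, raise the cell's own sensing, or, as USP18 does, shut the pathway down again.

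The promoters of most of the 9 genes held the letters of that element, and the matches are shown because the genes were followed as targets of 1 pathway. RefSeq promoter windows (GRCm38.p6, 250 bases before to 50 after a transcript start) were at hand for 8 of the genes. The ISRE was searched as GAAANNGAAA on both strands, and on the minus strand it reads TTTCNNTTTC. It was found in 6 of the 8 genes (75%), and in 1079 of all 27025 genes with a window (3.99%). In the lines that follow, each written 5′ to 3′ on the strand of the gene, capitals mark the ISRE letters.
Stat2: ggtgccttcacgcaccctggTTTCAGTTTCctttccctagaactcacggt
Isg15: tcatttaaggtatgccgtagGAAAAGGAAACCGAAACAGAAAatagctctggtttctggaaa
Ifit1: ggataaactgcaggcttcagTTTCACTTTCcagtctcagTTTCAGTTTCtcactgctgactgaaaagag
Ifit3: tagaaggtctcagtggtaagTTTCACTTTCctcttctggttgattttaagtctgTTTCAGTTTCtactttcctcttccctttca
Bst2: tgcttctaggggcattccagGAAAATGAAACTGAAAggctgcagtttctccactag
Ifih1: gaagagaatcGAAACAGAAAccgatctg

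The stretches lie at chr10:128270256-128270305 for Stat2 (plus strand), chr4:156200855-156200916 for Isg15 (minus), chr19:34640765-34640833 for Ifit1 (plus), chr19:34583353-34583436 for Ifit3 (plus), chr8:71537567-71537622 for Bst2 (minus) and chr2:62646206-62646233 for Ifih1 (minus). Isg15 held 3 matches that overlap one another, Bst2 held 2 that overlap, and Ifit1 and Ifit3 held 2 separate ones each. The match of Ifih1 lies after the transcript start, within the transcript. The windows of Irf7 and Irf9 held no ISRE letters, which says only that these letters are not in these windows. The gamma-activated site, the STAT dimer element searched as TTCNNNGAA (the same on both strands), was found in Bst2 alone of the 8 genes, where it overlaps the first ISRE match, and in 2582 of all 27025 genes (9.55%).

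**Figure D1:**
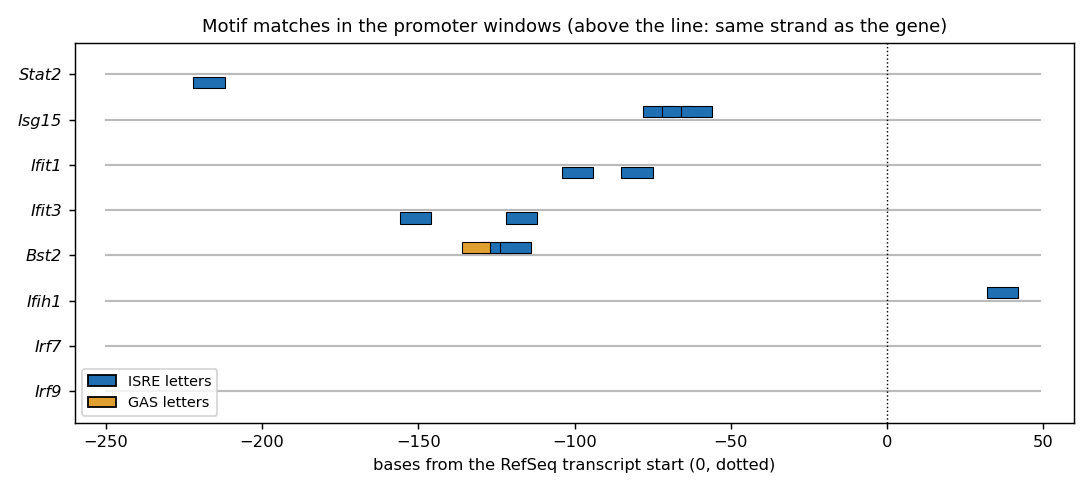
Positions of motif letters in the RefSeq promoter windows of 8 interferon genes, in bases from the transcript start (the first transcribed base is 0); boxes above a line are on the strand of the gene and boxes below it on the other strand. ISRE letters lie between 222 bases before and 57 bases before the start in 5 genes and after the start in Ifih1, while the lines of Irf7 and Irf9 are empty.

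The libraries held between 11182479 and 15594615 counts. At this depth 7 of the 9 genes passed edgeR's filter on low counts (filterByExpr), and Ifit1 and Ifit3 did not. A gene was treated as at the count floor in a group when it had 3 counts or fewer in every library of that group. No gene of the 9 was at the floor with shlucif. Ifit3 was at the floor with both Arf1 hairpins, and Ifit1 was at the floor with shArf1-1 and in 2 of the 3 shArf1-2 libraries.

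All 7 tested genes were lower in Arf1-deficient than in shlucif libraries, by log2 fold changes from -4.52 for Irf7 to -0.44 for Stat2, with a median of -2.31. Among all 12448 tested genes 32.9% were lower past the same threshold (an adjusted p under 0.05, Benjamini-Hochberg over all tested genes) and 31.6% were higher, and the median change was 0.003. Genes that pass a filter only through the group where they are high had to differ, so that the count of 7 is a description. CPM is a count scaled to the library total, for this comparison also by edgeR's TMM factors. In 8 of the 9 genes every Arf1-deficient library lay below every shlucif library in CPM so scaled. The exception was Ifit3, and the 8 include Ifit1, which was not among the tested genes. Of all tested genes 30.1% had this order. Since RNA was taken from whole cultures, fewer cells expressing a gene and less RNA per cell cannot be told apart.

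Macrophage markers moved in the same direction, and their values belong beside each result that follows. The summed level of 20 such markers was 341 to 409 CPM in the shlucif libraries, 1.44 to 1.73 CPM with shArf1-1 and 1.64 to 2.05 CPM with shArf1-2. All 18 tested markers were lower in Arf1-deficient libraries (32.9% of all tested genes were), and Ctss, Itgam, C1qb, C1qc, Spi1 and Aif1 had 0 counts in all 6 of them. Markers that passed the filter only through the shlucif libraries had to be lower, so that the count of 18 is a description. With at least 10 counts in every library 0 of these markers could be tested. The summed level of the 9 interferon genes was 248 to 294 CPM with shlucif, 77.5 to 81.4 CPM with shArf1-1 and 105 to 116 CPM with shArf1-2. Most of this sum came from Stat2 and Bst2, with 542 to 928 and 255 to 476 counts in Arf1-deficient libraries. Irf7 had 7 to 15 counts there. Within the shlucif group both sums were highest in replicate 1 and lowest in replicate 3, an order of 3 libraries that was not tested. Stat2, Irf7, Isg15, Ifit1 and Ifih1 had this order. Irf9 and Ifit3 were highest in replicate 2, and Bst2 and Usp18 were lowest there. The 14 neuronal and neuroblastoma markers, by contrast, summed to between 1862 and 1902 CPM with shlucif and to between 2774 and 3062 CPM in the Arf1-deficient libraries. Of these markers 10 were higher and 1 was lower (31.6% and 32.9% of all tested genes), and 3 did not pass the threshold. The 4 tested fibroblast markers of a list of 7 held 2 that were lower, Col1a1 and Pdgfrb, and 0 that were higher (32.9% and 31.6% of all tested genes). The part of these cell type markers in the fall of the interferon genes was not tested.

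**Figure D2:**
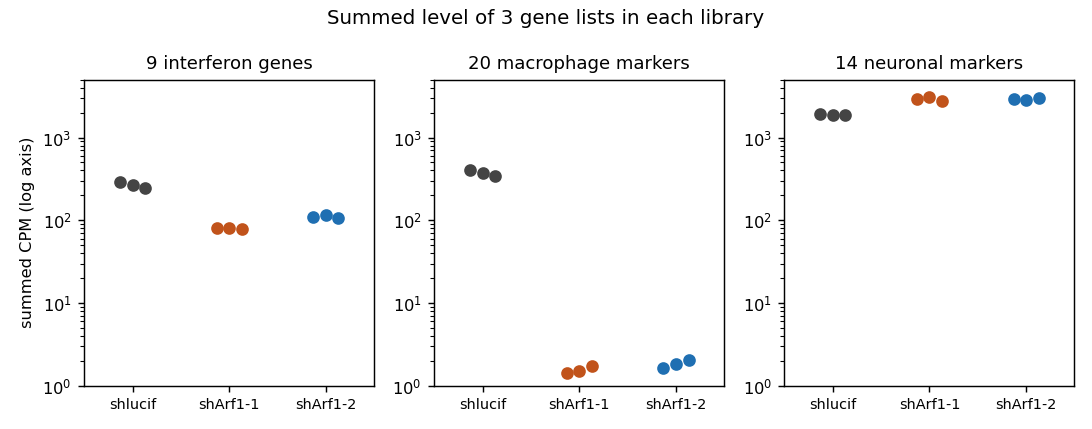
Summed CPM (log axis) of the 9 interferon genes, 20 macrophage markers and 14 neuronal markers, 1 point per library. The sum of the interferon genes, most of it from Stat2 and Bst2, stays at 77.5 CPM or above in every library. The macrophage markers lie between 1.44 and 2.05 CPM in the Arf1-deficient libraries, and the neuronal markers lie higher there than with shlucif.

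Stat2, Irf9 and Irf7 encode the transcription factors of the group. Stat2 (ENSMUSG00000040033, chr10:128270559-128292849 of GRCm38, plus strand), the STAT of type I and III interferon signalling, was at 13.2, 12.8 and 11.6 FPKM (a count scaled to gene length and library total) in shlucif replicates 1 to 3, at 8.37, 8.18 and 8.05 FPKM with shArf1-1 and at 10.6, 11.5 and 11.1 FPKM with shArf1-2. The 3 groups did not overlap, with shArf1-1 lowest and shArf1-2 just below the lowest shlucif library. Its log2 fold change in Arf1-deficient libraries was -0.44 (SE 0.11, edgeR adjusted p = 0.00235), the smallest among the 7 tested genes.

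Irf9 (ENSMUSG00000002325, chr14:55603571-55610030, plus strand), the DNA-binding partner of STAT2, was at 4.15, 4.62 and 3.56 FPKM with shlucif, at 0.890, 0.913 and 1.24 FPKM with shArf1-1 and at 1.03, 1.21 and 1.08 FPKM with shArf1-2. The hairpins overlapped each other and lay well below the control. The log2 fold change was -2.01 (SE 0.13, edgeR adjusted p = 6.97e-11), or 4.03 times lower. Exons of Irf9 overlap those of Rnf31 on the same strand, which was itself lower (log2 fold change -0.98), and the sources used here do not say how reads in the overlap were counted.

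Irf7 (ENSMUSG00000025498, chr7:141262706-141266481, minus strand), the factor that drives most interferon alpha genes and is itself induced by interferon, fell most. It was at 5.80, 5.19 and 4.16 FPKM with shlucif, at 0.212, 0.166 and 0.221 FPKM with shArf1-1 and at 0.181, 0.295 and 0.281 FPKM with shArf1-2. In counts these were 214 to 302 reads with shlucif and 7 to 15 reads in Arf1-deficient libraries, close to the floor but above it. The log2 fold change was -4.52 (SE 0.18, edgeR adjusted p = 8.52e-14), or 23.0 times lower. Phrf1, on the other strand, shares exon sequence with Irf7, and without strand in the counting their reads could not be separated there. Phrf1 rose by 0.24 on the log2 scale, the opposite direction.

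Ifih1 encodes MDA5, a cytosolic sensor of long double-stranded RNA (ENSMUSG00000026896, chr2:62595798-62646255, minus strand). It was at 0.764, 0.613 and 0.503 FPKM with shlucif, at 0.225, 0.175 and 0.118 FPKM with shArf1-1 and at 0.159, 0.191 and 0.138 FPKM with shArf1-2. With 56 to 86 counts in shlucif libraries and 15 to 23 in the others, it was the lowest of the 7 tested genes in the control. The hairpins overlapped, and the log2 fold change was -1.97 (SE 0.24, edgeR adjusted p = 7.89e-07).

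The effector genes spanned the highest and the lowest levels of the group. Bst2 (ENSMUSG00000046718, chr8:71534255-71537456, minus strand) encodes tetherin, which holds budding virus particles at the cell surface. It was at 148, 124 and 131 FPKM with shlucif, at 22.6, 25.4 and 20.7 FPKM with shArf1-1 and at 36.0, 35.9 and 29.5 FPKM with shArf1-2. The 3 groups did not overlap, and even at its lowest Bst2 had 255 counts in a library. The log2 fold change was -2.31 (SE 0.15, edgeR adjusted p = 2.13e-07), or 4.95 times lower.

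Isg15 (ENSMUSG00000035692, chr4:156199424-156200818, minus strand), a ubiquitin-like protein that is attached to other proteins and also secreted, was at 27.0, 23.8 and 19.5 FPKM with shlucif. It was at 2.95, 2.93 and 2.92 FPKM with shArf1-1 and at 4.37, 6.23 and 5.42 FPKM with shArf1-2. The shArf1-1 libraries were nearly equal to one another and below every shArf1-2 library. The log2 fold change was -2.56 (SE 0.20, edgeR adjusted p = 2.89e-09), or 5.89 times lower.

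Ifit1 (ENSMUSG00000034459, chr19:34640871-34650009, plus strand), which binds viral RNA that lacks the host's cap methylation, had 16, 15 and 8 counts with shlucif, 0, 1 and 0 with shArf1-1 and 4, 1 and 3 with shArf1-2. Its level was 0.360 ± 0.121 FPKM (SD, n = 3) in the control, 0.011 ± 0.019 FPKM (SD, n = 3) with the first hairpin and 0.070 ± 0.038 FPKM (SD, n = 3) with the second. Every Arf1-deficient library was below every shlucif library, and the exact two-sided permutation test on CPM gave p = 0.02381, the smallest that 6 against 3 libraries allow. Summed counts of 39 against 9 made its rate 8.66 times lower in Arf1-deficient libraries, with a 95% interval of 4.13 to 20.3 that covers counting error only.

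Ifit3 (ENSMUSG00000074896, chr19:34583531-34588731, plus strand), a partner of the other IFIT proteins, had 4, 7 and 1 counts with shlucif, 0, 2 and 1 with shArf1-1 and 2, 0 and 0 with shArf1-2. Its groups overlapped, and the exact two-sided permutation test gave p = 0.07143. Summed counts of 12 against 5 gave a rate 4.80 times lower (95% counting interval 1.57 to 17.4). In a fit without the filter on low counts its edgeR adjusted p was 0.0446 over both hairpins, and a difference with either hairpin alone was not detectable at this depth (edgeR adjusted p = 0.166 with shArf1-1 and 0.0753 with shArf1-2). Its near copy Ifit3b had 5 counts in 1 shlucif library and 2 in 1 shArf1-2 library, and reads could be split between the copies.

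Usp18 (ENSMUSG00000030107, chr6:121245906-121270917, plus strand) encodes the protease that removes ISG15 from proteins and, apart from that, blocks signalling at the interferon receptor. It was at 4.08, 2.89 and 2.97 FPKM with shlucif, at 0.229, 0.256 and 0.161 FPKM with shArf1-1 and at 0.611, 0.745 and 0.456 FPKM with shArf1-2. The 3 groups did not overlap, and shArf1-1 libraries held 7 or 8 counts against 18 to 28 with shArf1-2. The log2 fold change was -3.06 (SE 0.30, edgeR adjusted p = 1.20e-07), or 8.36 times lower. Gm44148, a noncoding RNA gene on the other strand, shares exon sequence with Usp18, and without strand in the counting their reads could not be separated there.

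**Figure D3:**
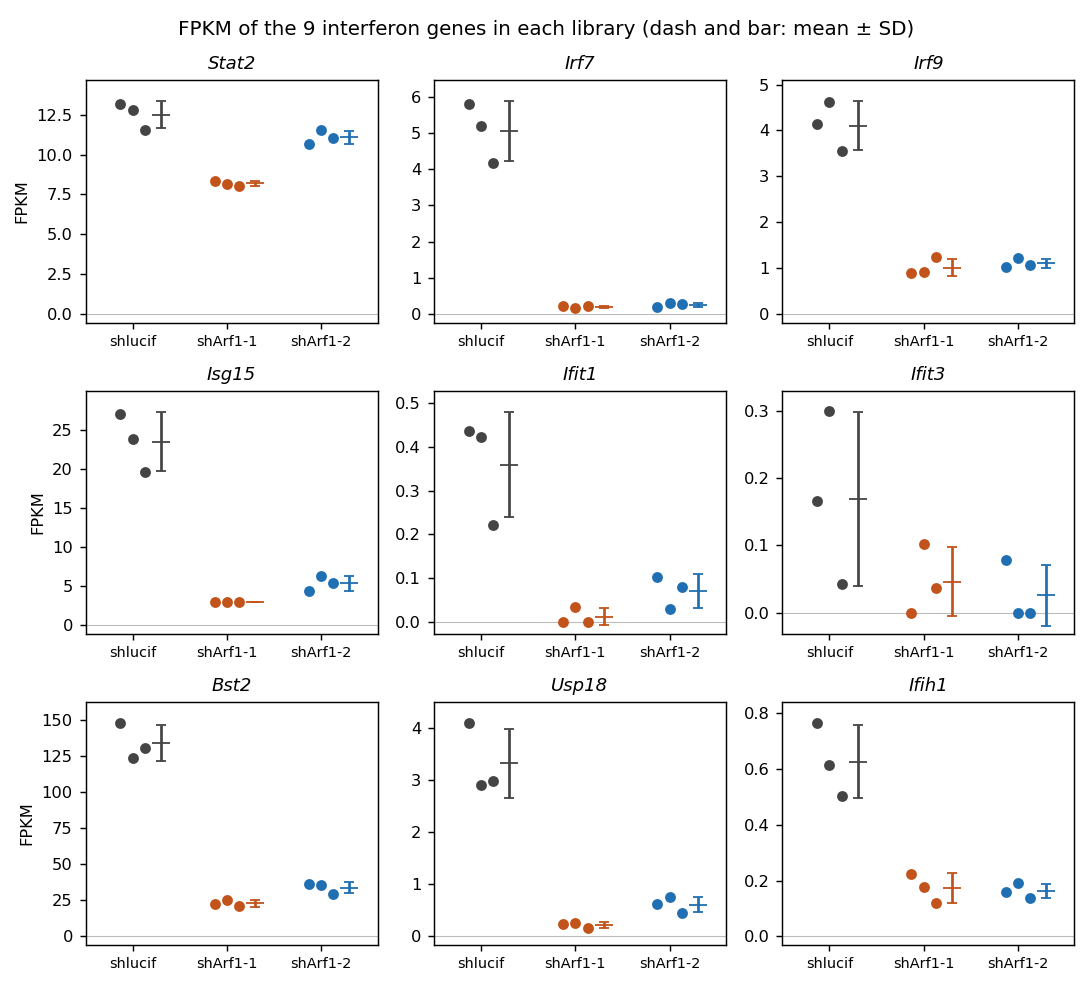
FPKM of each of the 9 interferon genes in the 3 shlucif, 3 shArf1-1 and 3 shArf1-2 libraries (points), with the mean ± SD of each group (dash and bar), each panel on its own linear axis. Stat2 keeps most of its level, Irf7 lies close to 0 with both Arf1 hairpins, and Ifit3 is the only gene whose Arf1-deficient and shlucif libraries overlap.

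The order of the genes by FPKM, which corrects for gene length, changed between the groups. With shlucif it ran from Bst2 through Isg15 and Stat2 to Irf7, Irf9 and Usp18, then Ifih1, Ifit1 and Ifit3. Neighbours in that order whose libraries overlapped were Irf7 and Irf9, Irf9 and Usp18, and Ifit1 and Ifit3. With both Arf1 hairpins Stat2 stood above Isg15 and Irf9 was the fourth, with no overlap between these neighbours. Irf7 was above Irf9 within each shlucif library, with group means of 5.05 ± 0.830 against 4.11 ± 0.534 FPKM (SD, n = 3). With shArf1-1 Irf7 was at 0.199 ± 0.029 FPKM against 1.01 ± 0.195 FPKM for Irf9 (SD, n = 3).

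Each hairpin was also compared with shlucif on its own. The comparisons share the same 3 shlucif libraries, so their agreement is not independent. All 7 tested genes were lower with shArf1-1 (34.4% of all tested genes were) and all 7 with shArf1-2 (32.6%). With shArf1-1 the log2 fold changes were -4.68 for Irf7, -4.01 for Usp18, -3.05 for Isg15, -2.61 for Bst2, -2.05 for Irf9, -1.93 for Ifih1 and -0.66 for Stat2. With shArf1-2 they were -4.39 for Irf7, -2.53 for Usp18, -2.21 for Isg15, -2.06 for Bst2, -1.97 for Irf9, -2.01 for Ifih1 and -0.25 for Stat2. The largest edgeR adjusted p among these values was that of Stat2 with shArf1-2, 0.00212.

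The hairpins differed in 4 of the 7 genes, each higher with shArf1-2, against 6.98% of all tested genes that were higher with shArf1-2. Usp18 was 2.80 times higher with shArf1-2 than with shArf1-1 (log2 difference 1.48, SE 0.36, edgeR adjusted p = 0.00364). The log2 difference was 0.84 for Isg15 (SE 0.22, edgeR adjusted p = 0.00802), 0.55 for Bst2 (SE 0.10, edgeR adjusted p = 0.000199) and 0.42 for Stat2 (SE 0.07, edgeR adjusted p = 8.84e-05). The Isg15 difference lost the threshold without shArf1-2 replicate 2, where it was 0.73 (edgeR adjusted p = 0.0511).

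The other 3 genes did not pass this test. The 95% interval of the log2 difference ran from -0.39 to 0.97 for Irf7, from -0.24 to 0.41 for Irf9 and from -0.76 to 0.59 for Ifih1, so that for Irf7 and Ifih1 a difference as large as that of Bst2 lies within the interval. Beside these values, Arf1 itself was 0.34 higher on the log2 scale with shArf1-2. Of the 18 tested macrophage markers 0 differed between the hairpins, at summed counts of 17 to 27 per library with shArf1-1 and 24 to 29 with shArf1-2. Of the 20 listed markers 16 were at the floor in every shArf1-1 library and 17 in every shArf1-2 library. A hairpin difference in most of these markers was therefore not detectable at this depth. The part of the Arf1 level in the difference was not tested.

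**Figure D4:**
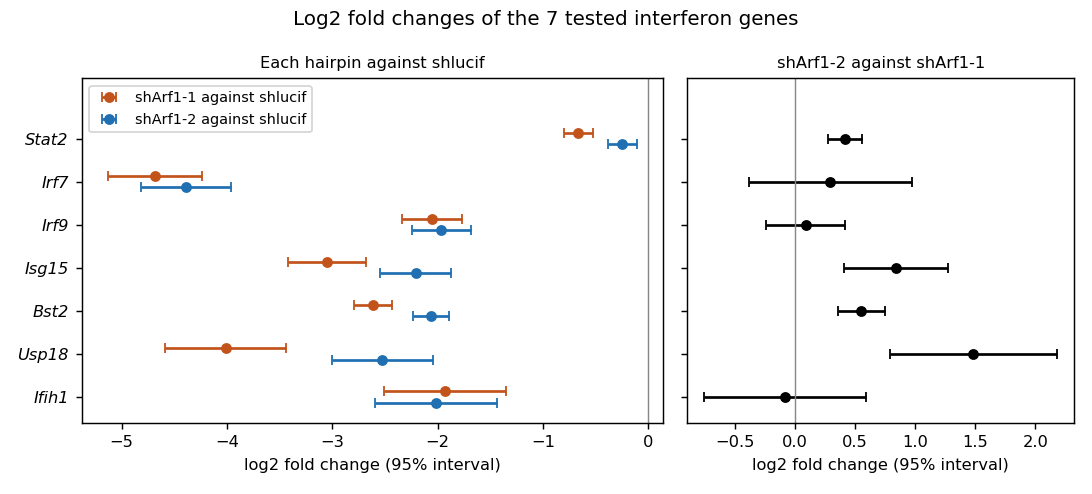
Log2 fold changes of the 7 tested interferon genes with 95% intervals, each Arf1 hairpin against shlucif (left) and shArf1-2 against shArf1-1 (right), from edgeR's fit of the 3 groups. All left-hand intervals lie below 0, and on the right those of Stat2, Isg15, Bst2 and Usp18 lie above 0 while those of Irf7, Irf9 and Ifih1 cross it.

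The rest of the pathway was described through 6 lists with 133 genes, of which 130 were in the table and 89 were tested. These lists, too, were chosen with earlier results of these data known. In Arf1-deficient libraries 67 of the 89 were lower and 4 were higher, where 32.9% of all tested genes were lower and 31.6% higher, and the median log2 fold change was -0.95 against 0.003 over all tested genes. List genes that passed the filter only through the shlucif libraries had to be lower. The counts here and for each list below are therefore descriptions. The genes of the interferons themselves were not measurable. Of 20 interferon ligands 18 had 0 counts in all 9 libraries, and the other two, Ifna13 and Ifnk, had at most 3 counts in a library, so that every ligand was at the floor and a change in them was not detectable at this depth. Mx1, Mx2 and Oas1b were not analysed here.

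Among 16 tested genes of the receptors and their proximal signalling 11 were lower and 1 was higher (32.9% and 31.6% of all tested genes), with a median of -0.38. Of the chains of the type I receptor, Ifnar1 had a log2 fold change of -0.20 (edgeR adjusted p = 0.0103, and 0.0618 with library size scaling) and Ifnar2 of -0.48 (edgeR adjusted p = 0.000189). Ifngr2, a chain of the type II receptor that is also named after its values were seen, had -0.36 (edgeR adjusted p = 0.00321). The other chain of that receptor, Ifngr1, had 0.11 and did not pass the threshold (edgeR adjusted p = 0.433). Of the kinases, Jak2, which serves the type II receptor and is named here after its values were seen, fell by 1.29 on the log2 scale (edgeR adjusted p = 3.57e-09), from 733 to 876 counts with shlucif to 231 to 432 in Arf1-deficient libraries. Tyk2 had -0.40 (edgeR adjusted p = 0.00137), and Jak1 had 0.02 (edgeR adjusted p = 0.877) with a called difference between the hairpins, 0.19 with shArf1-1 and -0.17 with shArf1-2.

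The genes of this list that fell most were regulators of cytokine signalling. Ptpn6, a phosphatase of blood cells, went from 164 to 186 counts with shlucif to 2 to 6 in Arf1-deficient libraries. Socs3 fell by 2.05, Stat3 by 1.45 and Socs1 by 1.29 on the log2 scale. SOCS1 and SOCS3 are feedback inhibitors of JAK kinases, and STAT3 serves chiefly the interleukin-6 family. The 1 higher gene was Ptpn11, another phosphatase, at 0.67.

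Of 8 tested interferon regulatory factors and their binding proteins outside the 9 genes, 5 were lower and 1 was higher (32.9% and 31.6% of all tested genes), with a median of -0.40. Irf8, a factor of myeloid cells, had 100 to 140 counts with shlucif and 0 to 3 in Arf1-deficient libraries, so it was at the floor there. Irf5 fell by 2.06 and Irf2 by 1.10 on the log2 scale, and Irf2bp1, which binds IRF2, rose by 0.53. Irf3, the factor activated downstream of the nucleic acid sensors, had -0.22 and did not pass the threshold (edgeR adjusted p = 0.119), with -0.44 for shArf1-1, -0.04 for shArf1-2 and a called difference between them.

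Of 17 tested sensors and adaptors, 9 were lower and 1 was higher (32.9% and 31.6% of all tested genes), with a median of -0.44. The other RIG-I-like receptors moved with Ifih1: Ddx58, which encodes RIG-I, fell by 2.44 (edgeR adjusted p = 1.15e-10) and Dhx58, which encodes LGP2, by 2.25 (edgeR adjusted p = 2.70e-08). Tlr7, an endosomal RNA receptor, went from 14 to 39 counts to 1 to 9 counts. Ticam1, the adaptor of TLR3, fell by 1.14, Mavs, the mitochondrial adaptor of RIG-I and MDA5, by 0.78, and Sting1, the adaptor of DNA sensing, by 0.68 on the log2 scale. The DNA sensor Cgas had a log2 fold change of 0.06 (edgeR adjusted p = 0.783) at 60 to 106 counts in all libraries, and the kinase Tbk1 had -0.17 (edgeR adjusted p = 0.0299), a call that was lost with library size scaling (edgeR adjusted p = 0.168) and without shlucif replicate 2 (0.135), shlucif replicate 3 (0.161), shArf1-2 replicate 1 (0.0545) or shArf1-2 replicate 3 (0.0509). The 1 higher gene was Traf3, an adaptor of the sensing pathways, at 0.56, with 0.79 for shArf1-1, 0.29 for shArf1-2 and a called difference between them.

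The 4 enzymes that attach ISG15 were each lower (32.9% of all tested genes were), with a median of -0.80. Uba7, the activating enzyme, fell by 1.83, Trim25, a ligase that also ubiquitinates RIG-I, by 1.01, Herc6, the main ISG15 ligase of the mouse, by 0.58 and Ube2l6, the conjugating enzyme, by 0.48 on the log2 scale. The call of Herc6 was lost without shlucif replicate 2 (edgeR adjusted p = 0.158), without shlucif replicate 3 (0.146) and without shArf1-1 replicate 3 (0.0505).

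Among 44 tested genes of a list of other interferon-stimulated genes, 38 were lower, 1 was higher (32.9% and 31.6% of all tested genes) and 5 did not pass the threshold, with a median of -1.76. The 4 with the largest change reached the floor in most Arf1-deficient libraries. Slfn2 had 56 to 67 counts with shlucif and 0 in all Arf1-deficient libraries but 1, which had 5. Oas2, an activator of RNase L, went from 70 to 107 counts to 0 to 4, Phf11d from 11 to 23 counts to 0 to 2, and Ccl5, a chemokine, from 10 to 17 counts to 0 to 2. The 1 higher gene was Cmpk2, a mitochondrial nucleotide kinase, at 0.54 (edgeR adjusted p = 0.00106).

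The genes of that list that did not pass the threshold were Ifit2, Ifitm2, Psmb8, Nmi and Ogfr, which are named here although they were chosen after their values were seen. Ifit2, a neighbour and relative of Ifit1 and Ifit3, had 63 to 67 counts with shlucif and 48 to 62 in Arf1-deficient libraries (log2 fold change -0.36, edgeR adjusted p = 0.0837). A promoter window was at hand for 48 genes of the list, and 24 of them (50%) held ISRE letters. Of the tested genes with these letters 15 of 17 were lower, and of those without them 15 of 19 (32.9% of all tested genes were). Tested genes of the list without a window were left out of both counts. The part of these letters in the fall was not tested.

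**Figure D5:**
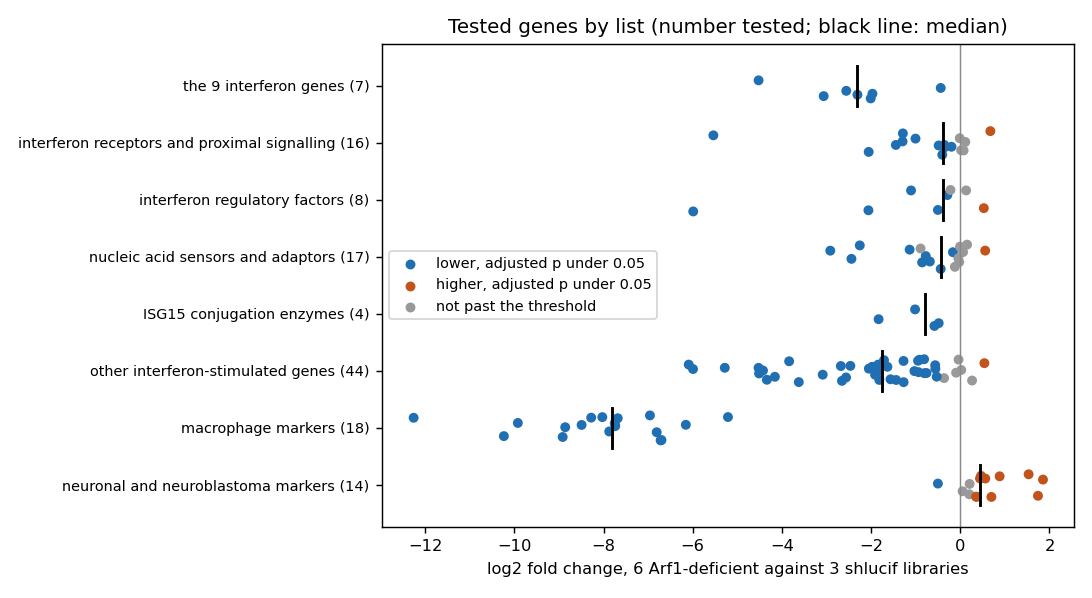
Log2 fold changes (6 Arf1-deficient against 3 shlucif libraries) of the tested genes of each list, 1 point per gene, with the list's median as a black line; vertical scatter within a list has no meaning, and values of genes at 0 to 3 counts in Arf1-deficient libraries depend on edgeR's prior count. The medians run from -2.31 for the 9 interferon genes over -1.76 for other interferon-stimulated genes to -0.38 for receptors and proximal signalling, and the median of the macrophage markers lies farther left than that of any pathway list.

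The genes outside the group whose log2 CPM most resembled that of each tested gene over the 9 libraries were Fcer1g for Irf7 (Pearson r = 0.998), Pik3ap1 for Irf9 (0.996), Stard5 for Stat2 (0.990), Adssl1 for Isg15 (0.996), Amdhd2 for Bst2 (0.999), Gtpbp2 for Usp18 (0.997) and Zfyve1 for Ifih1 (0.989). These are descriptions over 9 libraries that share the same group differences. Fcer1g, an immune receptor subunit, is on the list of macrophage markers, and it had 176 to 237 counts with shlucif and 0 or 1 in each Arf1-deficient library.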

How the data were processed

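The authors deposited 1 table with a whole-number read count and an FPKM value per gene and library. The counts deposited by the authors carry no normalization, and the deposited FPKM equal count over listed length and library total (largest relative gap 1.9e-07). Submitters' processing notes name mm10. Aligner, counter and use of strand are not given in the sources used here. Columns named for the gene with the digit 2 were read as shArf1-2. Lines that hold split annotation text (8) were dropped.

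Counts were analysed in R 4.3.3 with edgeR 4.0.16 (filterByExpr, TMM, robust glmQLFit and glmQLFTest), once with 6 Arf1-deficient against 3 shlucif libraries and once with 3 groups, Benjamini-Hochberg adjusted over 12448 genes, threshold 0.05. The script was tested on simulated data. Alternatives used DESeq2 1.42.0, limma 3.58.1, other scalings and filters, a replicate block and leaving out each library. Permutation tests used scipy 1.17.1. Libraries held 11182479 to 15594615 counts, and intervals of summed counts cover counting error only, while those of log2 fold changes come from edgeR's SE.

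The 9 genes and the lists were chosen with earlier results of these data known. Named were all 9, the 4 genes per list with the largest change past the threshold at 1 CPM or more in the higher group, a fixed set of receptor, kinase and sensor genes, and the gene most alike to each. A gene this rule names is not reported here, and the counts include it. Gene positions are from GENCODE on GRCm38, by identifier, and promoter sequences from RefSeq on GRCm38.p6.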

Additional observations from a re-analysis of the deposited data

Results flagged for a closer look

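The change of 4 genes differed between the Arf1 hairpins in edgeR's test of the difference itself, and each was higher with shArf1-2. On the log2 scale the second hairpin exceeded the first by 1.48 for Usp18, the protease that removes ISG15, with shArf1-2 above shArf1-1 in 3 of 3 libraries. The same difference was 0.84 for Isg15, 0.55 for Bst2 and 0.42 for Stat2, and for each of these the libraries of the hairpins did not overlap. Hairpin groups of 3 are too small to be tested for a library that stands apart.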

How the results depend on the processing

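Alternatives were DESeq2, library size and upper quartile scaling, no filter, at least 10 counts in every library, log2(FPKM + 1) and log2(FPKM + 0.1) with limma, a replicate block, other groupings of the same libraries and leaving out each library. For the 7 tested genes all values against shlucif kept direction and call wherever they were tested. The number of the 9 genes that were lower in Arf1-deficient libraries ran from 5 to 9. It was 5 with at least 10 counts in every library, where fewer were tested and 3595 of all 11198 tested genes were lower. It was 9 with no filter, where Ifit1 (edgeR adjusted p = 0.000150) and Ifit3 (0.0446) were added and 4351 of all 16766 tested genes were lower. It was 7 or 8 with a library left out, where between 3747 of 12626 and 4123 of 12385 tested genes were lower. On the log2(FPKM + 1) scale, which understates low genes, Irf7 fell by 2.29 and Ifih1 by 0.48. Replicate numbers did not pair the libraries (mean correlation 0.007 over 9 pairs, from -0.08 to 0.09). With the replicate block the count stayed 7, and 4 between the hairpins. Of all 12448 tested genes 3996 were lower in that setting, and 881 were higher with shArf1-2 than with shArf1-1. The hairpin difference of Ifih1 ran from -0.33 to 0.16 with a library left out, being 0.16 without shArf1-1 replicate 1 and 0.013 without shArf1-2 replicate 3, where its sign turned, and the cause was not tested. With a library left out Jak1 ran from -0.025 to 0.068, turning sign without shlucif replicate 3 (-0.0160) and without shArf1-1 replicates 1 to 3 (-0.0246, -0.0163 and -0.0165), and Cgas ran from -0.031 to 0.17, turning sign without shlucif replicate 1 (-0.0087) and shArf1-2 replicate 3 (-0.0307), the cause not tested. Library size scaling, which moved the median of all genes to 0.066, ended the call of Ifnar1 (edgeR adjusted p = 0.0618). With at least 10 counts in every library 24 of 30 tested other interferon-stimulated genes were lower (3595 of all 11198 tested genes were), and 0 macrophage markers could be tested. Depth limits Ifit1, Ifit3 and all interferon ligands.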
